A study of Mus musculus with 112 samples.

Results

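The comparison described here asked what the P300/CBP inhibitor A485 did to gene expression in LSD1 knockout (KO) cells that had left the naive embryonic stem cell (ESC) state in serum. It was chosen by library title and holds 4 of the 112 RNA-seq libraries of the series, 2 of LSD1 KO cells given A485 and 2 of LSD1 KO cells given its solvent, dimethyl sulfoxide (DMSO). All cells were V6.5 mouse ESCs, kept as naive cells with inhibitors of MEK and GSK3 (2i) and leukemia inhibitory factor (LIF), and then grown for 4 days in medium with fetal bovine serum and neither 2i nor LIF. In the KO lines CRISPR deletion had removed the promoter and first exon of Kdm1a, the gene for LSD1. The methods state that replicates came from independent clones, but no label ties a library to a clone. The p-values below therefore measure the spread between these libraries, which may be technical. The dose and duration of A485 in serum are not given in the sources used here. The serum experiment also held 2 wild-type (WT) libraries and 2 libraries of cells with catalytically inactive LSD1 (LSD1 CI), all with DMSO. The series holds no library of WT serum cells with A485, so whether a response depended on the loss of LSD1 could not be tested.

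P300 and CBP are paralogous acetyltransferases that place acetyl groups on histones, among them H3K27ac at active enhancers, and A485 blocks their catalytic site. LSD1 is a histone demethylase that sits in the CoREST complex with the deacetylases HDAC1 and HDAC2. When 2i and LIF are withdrawn, mouse ESCs shut down naive factors such as Esrrb and Klf2 and pass through a formative state marked by Pou3f1, Foxd3 and Fgf5 before lineage genes come on. Serum brings growth factors that switch on immediate early genes, which include the AP-1 and EGR transcription factors, and the targets of the SRF and YAP regulators of the cytoskeleton.

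Total gene counts were 43848067 and 38011184 in the LSD1 KO DMSO libraries, 43267128 and 33766850 in the LSD1 KO A485 libraries and 39267458 and 43294038 in WT. The ribosomal precursor Rn45s took 17.7 and 18.5% of the counts with DMSO and 14.7 and 13.9% with A485. Levels are given as CPM, counts scaled to a common library total with TMM factors, and are compared only between libraries for the same gene. A gene was called when the edgeR quasi-likelihood test gave a Benjamini-Hochberg adjusted p below 0.01 and the log2 fold change exceeded 1 in size. Kdm1a read at 202 and 205 CPM in the WT libraries, 1.57 and 1.63 in the LSD1 KO DMSO libraries and 0.755 and 0.447 in the LSD1 KO A485 libraries. The 4 KO libraries thus match their label. No replicate pair held identical values, and the Pearson correlation of replicates over genes was 0.9924 to 0.995.

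With A485 the cells lost naive and formative transcripts and those of some Nodal pathway genes, and gained a smaller set that included AP-1, EGR and YAP target genes. Of 16296 genes tested, 1467 were called lower with A485 (9.0%) and 574 higher (3.52%), while the median log2 fold change of all genes was −0.04. The falls were also deeper, with a median of −2.19 among genes called lower and 452 of them beyond a log2 fold change of 3 in size. Genes called higher had a median of +1.36, and 20 passed that size. The number of genes with at least 1 count was 17490 and 17195 in the A485 libraries, 18388 and 18205 in the DMSO libraries and 17461 and 17490 in WT. Without LSD1 KO DMSO replicate 1 the counts were 354 higher and 1098 lower, and without A485 replicate 1 they were 381 and 995. Without Rn45s in the library sizes they were 576 and 1467.

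**Figure D1:**
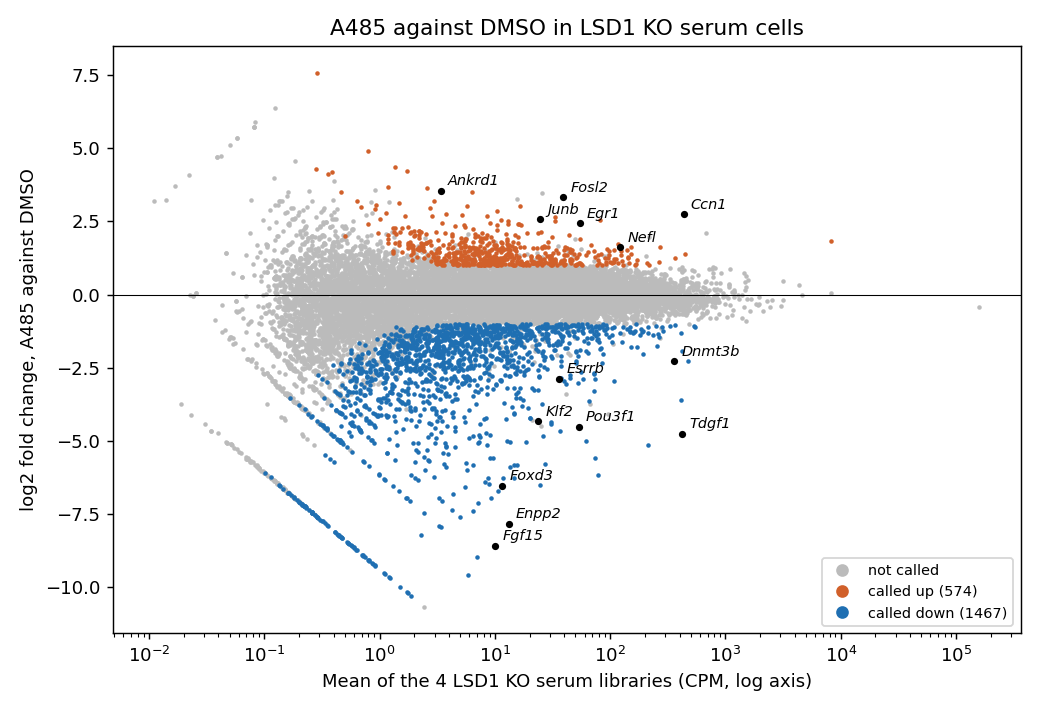
Log2 fold change of each tested gene, A485 against DMSO in LSD1 KO serum cells (vertical axis), against its mean level in CPM on a log axis, with called genes in colour and 14 genes labelled. Called genes below the zero line outnumber those above it, 1467 to 574, and reach further from it.

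Pou3f1, Foxd3 and Fosl2 are taken first as markers of the response, a choice made with earlier results of these data known. Pou3f1 encodes OCT6, a POU factor of formative cells, and lies on mm9 at chr4:124334889-124337899 on the plus strand. Its level was 98.7 and 106 CPM in the LSD1 KO DMSO libraries and 4.17 and 4.84 in the A485 libraries, a 22.8-fold difference of means. The edgeR log2 fold change was −4.51 ± 0.11 (SE, n = 2 a group, adjusted p = 6.88e-10). The WT libraries held 99.5 and 91.6 CPM, next to the DMSO-treated KO libraries and far above both A485 libraries. Foxd3, a forkhead factor that opens enhancers as cells leave the naive state (chr4:99322990-99325362, plus strand), read at 24.1 and 21.8 CPM with DMSO and at 0.311 and 0.168 with A485. Its fitted change was −6.53 ± 0.33 (edgeR adjusted p = 1.49e-07), and WT held 14.9 and 10.7 CPM. Both A485 libraries thus lay near the detection floor for Foxd3, where 3 counts correspond to 0.0666 and 0.0838 CPM. Fosl2, which encodes the AP-1 subunit FRA2 (chr5:32438845-32460212, plus strand), went the other way, from 7.01 and 7.17 CPM with DMSO to 70.2 and 72.5 with A485, a 10.1-fold gain (+3.33 ± 0.27, edgeR adjusted p = 9.04e-05). WT lay between, at 17.4 and 18.6 CPM. For all 3 genes the 2 libraries of a group were close together and the groups were far apart.

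**Figure D2:**
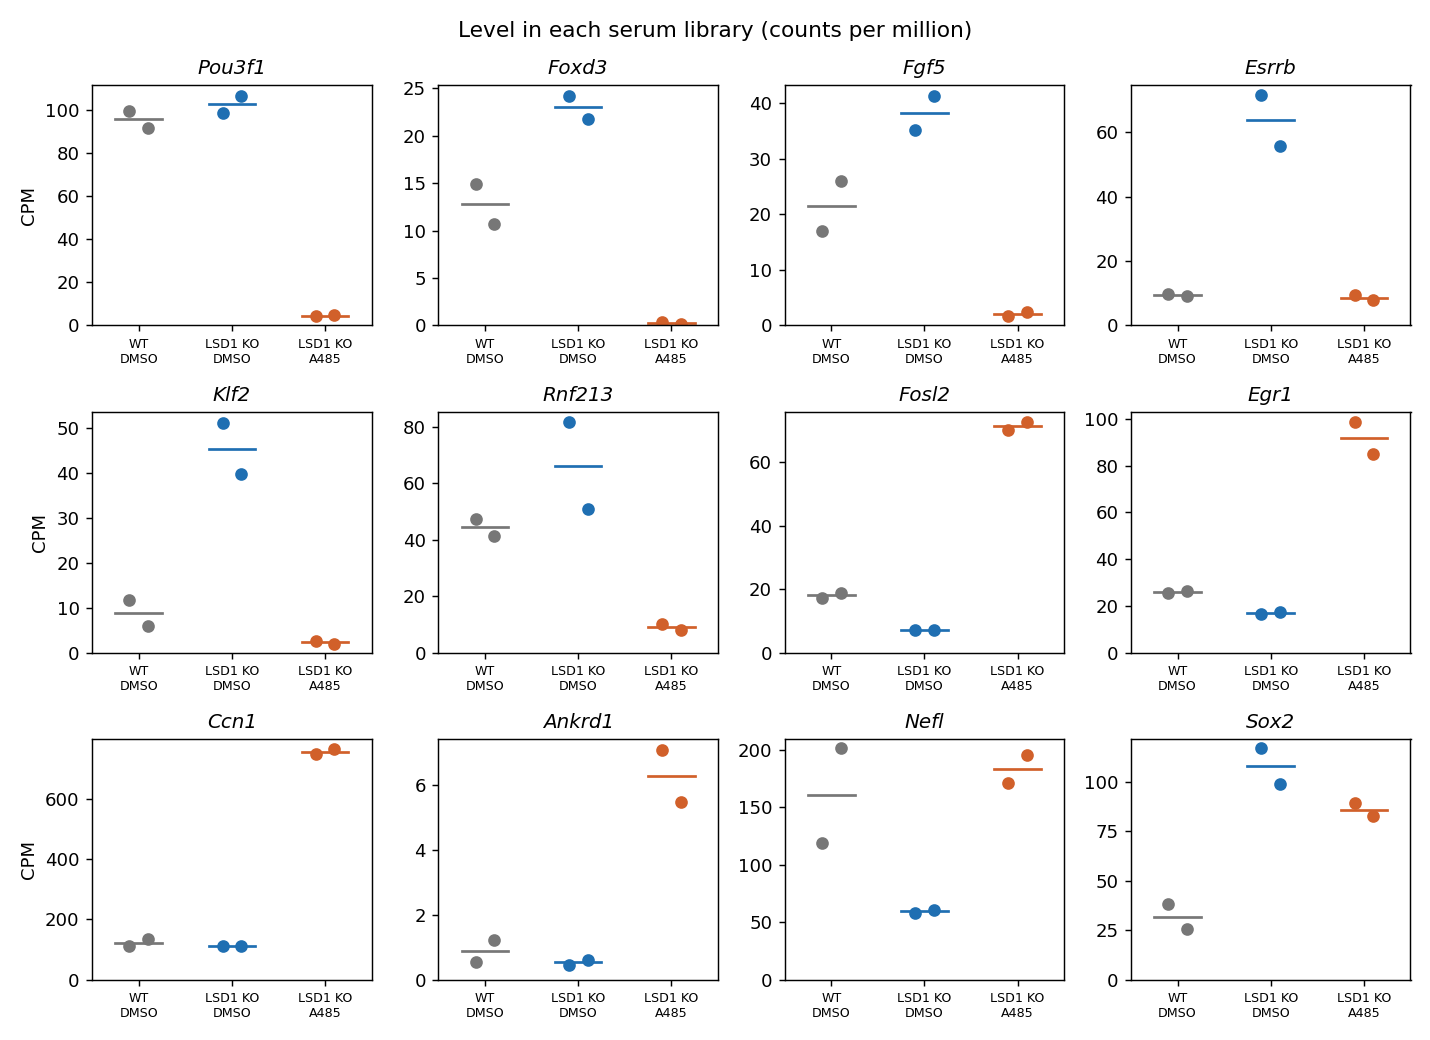
Level of 12 genes in CPM (linear axis) in the 2 WT DMSO, 2 LSD1 KO DMSO and 2 LSD1 KO A485 serum libraries, 1 point a library. Pou3f1, Foxd3 and Fgf5 drop in both A485 libraries, Fosl2, Egr1, Ccn1 and Ankrd1 climb in both, and Sox2 stays near the DMSO level.

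Naive pluripotency factors fell together. Of 16 genes on the naive list, 12 were called lower and 0 higher, beside 9.0% and 3.52% of all genes tested. The median log2 fold change of the list was −2.51, against −0.04 over all genes tested. Fewer members were called in every fit that left out 1 of the compared libraries. Across those fits Tbx3 ranged from −2.11 to −1.75 and Klf4 from −1.38 to −0.93. Esrrb, an orphan nuclear receptor of the naive network, stood at 71.5 and 55.8 CPM with DMSO and at 9.33 and 8.0 with A485 (−2.87 ± 0.16, edgeR adjusted p = 3.32e-07). WT held 9.68 and 9.06 CPM, so the A485 libraries lay at the WT level and the DMSO-treated KO libraries above both. Klf2, a Krüppel-like factor of the same network, read at 51.0 and 39.6 CPM with DMSO, 2.49 and 2.01 with A485, and 11.8 and 5.85 in WT. The A485 libraries were thus below WT as well (A485 against DMSO −4.32 ± 0.46, edgeR adjusted p = 0.00062). The Klf2 call was lost in 2 of the 4 fits that each left out 1 of the compared libraries, with adjusted p up to 0.0119. Tfcp2l1, a LIF-responsive factor, was at 152 and 105 CPM with DMSO, 41.4 and 29.2 with A485 and 14.4 and 12.4 in WT. Its level with A485 was lower than with DMSO (−1.86 ± 0.23, edgeR adjusted p = 0.000785) yet still above both WT libraries.

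Other naive genes came close to silence. Nr5a2, an orphan receptor, went from 16.1 and 12.3 CPM to 0.511 and 0.503 (−4.80 ± 0.48, edgeR adjusted p = 5.97e-05). Nr0b1, the X-linked DAX1 gene, went from 5.40 and 4.06 CPM to 0.133 and 0.0559, the last under the floor of 3 counts. Tdh, the threonine dehydrogenase of mouse ESCs, went from 16.5 and 18 CPM to 0.400 and 0. Its call was lost in 2 of those 4 fits. Members that did not pass were Nanog, at 338 and 299 CPM with DMSO and 149 and 179 with A485, a log2 fold change of −0.96 that missed the size threshold, and Zfp42 (REX1), at 55.9 and 45.7 against 35.0 and 33.9. Klf5 read slightly higher with A485, 45.8 and 52.9 against 41.4 and 39.96 CPM (edgeR adjusted p = 0.275).

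The summed level of the naive list was 1088 and 875.5 CPM with DMSO, 326.7 and 344.3 with A485, and 430.8 and 412.8 in WT. In bulk RNA, fewer naive cells and less naive RNA in each cell cannot be told apart. LSD1 KO DMSO against WT gave 10 of the 16 naive genes as higher and a median of +2.18, where 6.22% of all genes were called higher and 3.34% lower. LSD1 KO with A485 against WT gave 3 higher and 4 lower (6.51% and 9.76% over all genes) and a median of +0.02. These 3 comparisons share libraries, so their values are only set side by side.

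Of 10 genes common to naive and later pluripotency, 6 were called lower and 0 higher (median −1.20), beside 9.0% and 3.52% of all genes tested. Pou5f1 (OCT4) read at 390 and 391 CPM with DMSO, 115 and 116 with A485, and 409 and 364 in WT (A485 against DMSO −1.76 ± 0.12, edgeR adjusted p = 4.56e-06). Sox2, its partner, was at 117 and 98.7 CPM with DMSO and 89.2 and 82.7 with A485, a difference that did not pass (−0.33 ± 0.19, edgeR adjusted p = 0.21). The WT libraries had 38.3 and 25.6 CPM of Sox2, below all 4 KO libraries. Utf1, a chromatin protein of pluripotent cells, fell from 195 and 186 CPM to 27.9 and 21.4 (−2.94 ± 0.18). Lin28a, an RNA-binding protein that blocks let-7, fell from 529 and 636 to 231 and 236 CPM, and Sall4 from 736 and 714 to 350 and 333 CPM. Pou5f1 was thus called and Sox2 not, although the proteins act as a pair, and the difference between the 2 changes was not tested.

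The formative and primed epiblast list had 9 of 16 members lower and 0 higher (median −1.73), beside 9.0% and 3.52% of all genes tested. Besides Pou3f1 and Foxd3, Fgf5, a secreted marker of the postimplantation epiblast, went from 35.2 and 41.4 CPM to 1.73 and 2.46, an 18.3-fold difference (−4.20 ± 0.25, edgeR adjusted p = 2.52e-06). Both WT libraries, at 17.0 and 26.1 CPM, lay between. Dnmt3b, the de novo DNA methyltransferase of the epiblast, went from 593 and 605 CPM to 127 and 121 (−2.27 ± 0.22, edgeR adjusted p = 0.000498), and WT stood higher than either at 1229 and 858. Fgf15, a fibroblast growth factor of the early nervous system, read at 20.3 and 19.9 CPM with DMSO and at 0.0888 and 0 with A485. Sox3 went from 23.7 and 32.2 to 2.71 and 2.57 CPM, and Zic2 from 101 and 103 to 25.7 and 25.6.

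Several formative regulators were not called, although 15 of the 16 list members had a negative log2 fold change. Otx2, a homeobox factor that drives the exit from the naive state, was at 40 and 37.7 CPM with DMSO and 36.2 and 29.9 with A485 (edgeR adjusted p = 0.3). Lef1, a Wnt effector, was at 91.4 and 107 against 56.5 and 97.1, so the 2 groups overlapped. Dnmt3a did not pass either, with a fitted fall near the list median of −1.73 (−1.48 ± 0.39, edgeR adjusted p = 0.0353). The summed formative list stood at 1838 and 1874 CPM with DMSO, 662.1 and 691.7 with A485, and 2510 and 1869 in WT. Naive and formative transcripts were therefore low in the same 2 A485 libraries.

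FGF genes and some Nodal pathway genes fell. Of 9 FGF ligands and receptors, 5 were lower and 0 higher (median −2.62), beside 9.0% and 3.52% of all genes tested. Fgf4, the autocrine FGF of ESCs that drives them towards differentiation, went from 177 and 131 CPM to 2.67 and 1.54 (−6.16 ± 0.54, edgeR adjusted p = 0.000842), and its adjusted p was 0.0102 in 1 of the 4 fits without 1 library. Fgfr2 went from 29.4 and 27.2 CPM to 4.66 and 4.53 (−2.62 ± 0.15), whereas Fgfr1, the main FGF receptor of ESCs, had a log2 fold change of +0.42 and was not called. Among 12 ERK feedback genes, which report FGF and ERK activity, 3 were lower and 1 higher. Etv5 went from 403 and 404 CPM to 181 and 158 (−1.25), and the inhibitors Spry4 and Spry2 changed by −1.92 and −1.13.

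Tdgf1, which encodes the Nodal co-receptor CRIPTO, went from 803 and 830 CPM to 30.2 and 30.4, a 26.9-fold drop (−4.75 ± 0.24, edgeR adjusted p = 4.03e-05), with 846 and 743 in WT. The Nodal antagonists Lefty1 and Lefty2 went from 52.0 and 43.8 to 3.62 and 3.61 CPM and from 27.5 and 19.7 to 1.55 and 0.867 CPM. Nodal itself was only at 103 and 90.7 with DMSO and 68.4 and 62.3 with A485 (−0.57, edgeR adjusted p = 0.00046), short of the size threshold. The wider Nodal and TGF-beta list had 4 of 14 lower and 3 higher, beside 9.0% and 3.52% of all genes tested. Tgfb1, the TGF-beta ligand, rose from 2.21 and 3.27 to 9.99 and 11.2 CPM (+1.96 ± 0.32, edgeR adjusted p = 0.000664). The ligands, co-receptor and antagonists of the same family thus moved by different amounts and in both directions.

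Notch genes moved in both directions, where 9.0% of all genes tested were lower and 3.52% higher. The receptor Notch1 rose from 81.7 and 68.1 to 247 and 215 CPM (+1.62 ± 0.10, edgeR adjusted p = 5.3e-07), and the target Hes1 from 13.8 and 13.4 to 30.3 and 27.6 CPM (+1.09 ± 0.14, edgeR adjusted p = 0.000104). The ligands Jag1 and Dll1 fell, Jag1 from 24.9 and 27.4 to 5.57 and 5.12 CPM and Dll1 from 15.8 and 13.4 to 2.18 and 2.99 CPM. Over the whole Notch list 2 of 14 were higher and 6 lower, with Lfng (−1.51), a glycosyltransferase that modifies Notch, and the target Nrarp (−1.24) among the latter.

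The next lists are given beside the 9.0% of all genes tested that were lower and the 3.52% that were higher. Retinoic acid genes had 5 of 12 lower and 0 higher, led by the retinol transporter Stra6 (−4.70), the carrier Crabp2 (−2.85) and the retinaldehyde reductase Dhrs3 (−2.04). BMP genes had 4 of 13 lower and 0 higher, with Bmp7 (−2.62) and Bmp4 (−1.89), whose call was lost in 1 fit without a library. Of 15 Wnt genes 3 were lower and 0 higher, and the pathway reporter Axin2 was flat at −0.01. Sp5, another Wnt target, read at 2.44 and 6.04 CPM with DMSO and 34.5 and 59.9 with A485 but did not pass (+3.49 ± 1.23, edgeR adjusted p = 0.081). Of 10 LIF and STAT3 genes 2 were lower and 1 higher, with the LIF receptor Lifr at 66.7 and 66.3 against 21.1 and 21.6 CPM (−1.64) and the STAT3 target Socs3 at −2.40. Krüppel-like factors had 3 of 15 lower and 0 higher, Klf2 and Klf15 (−2.06) among them.

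The AP-1 and immediate early list had 6 of 24 members higher and 1 lower, and a median of +0.48. Over all genes tested 3.52% were higher and 9.0% lower. In the fits without 1 library 3 or 4 were higher. Egr1, a zinc finger factor induced by serum, rose from 16.4 and 17.4 CPM to 98.8 and 85.0 (+2.44 ± 0.12, edgeR adjusted p = 1.09e-07). The WT libraries, at 25.5 and 26.4 CPM, were closer to DMSO. Maff, a small MAF factor, rose from 3.58 and 3.19 to 12.1 and 15.4 CPM (+2.02 ± 0.19, edgeR adjusted p = 9.99e-06). Junb, the JUN-family partner of FOS proteins, went from 5.44 and 8.86 to 43.2 and 41.7 CPM (+2.58 ± 0.34, edgeR adjusted p = 0.00147). Its adjusted p was 0.0114 without A485 replicate 1 and 0.0105 without A485 replicate 2. Nab2, a co-repressor induced by and acting on EGR factors, was among the largest rises of all genes, from 3.09 and 4.17 to 28.8 and 29.7 CPM (+3.02 ± 0.24, edgeR adjusted p = 5.51e-06).

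Not all of this list moved up. Fos, the prototype immediate early gene, was at 2.28 and 2.48 CPM with DMSO and 4.31 and 4.58 with A485 (+0.90, edgeR adjusted p = 0.0238), and Jun changed by +0.22 (edgeR adjusted p = 0.119). Neither passed. Btg2 (+1.53) and Nr4a1 (+1.01) lost their calls in all 4 fits without 1 library, with adjusted p up to 0.035 and 0.0219. Myc went the other way, from 52.9 and 58.5 to 12.8 and 22.1 CPM (−1.68), a call lost in 1 of those fits (adjusted p = 0.0104). The summed level of the list was 725.8 and 757.9 CPM with DMSO and 1094 and 1078 with A485. In LSD1 KO DMSO against WT, 0 of the 24 were called higher and 7 lower, where 6.22% of all genes were called higher and 3.34% lower.

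Among SRF and YAP targets 3 of 18 were higher and 1 lower (median +0.36), beside 3.52% and 9.0% of all genes tested. Ccn1 (CYR61), a secreted matrix protein and a standard YAP target, stood at 111 and 113 CPM with DMSO, 747 and 764 with A485 and 111 and 136 in WT, a 6.75-fold rise (+2.75 ± 0.19, edgeR adjusted p = 6.07e-05). Ankrd1, a muscle ankyrin protein and YAP target, went from 0.461 and 0.606 CPM to 7.06 and 5.45, 11.7-fold (+3.55 ± 0.46, edgeR adjusted p = 0.000112). The WT libraries held 0.549 and 1.22 CPM. In the LSD1 CI DMSO libraries Ccn1 was at 174.1 and 252.0 and Ankrd1 at 1.344 and 2.745 CPM, above WT and below A485. Lats2, the kinase that restrains YAP, had a change of +1.62 whose call was lost in all 4 fits without 1 library (adjusted p 0.0212 to 0.0398). Ccn2 (CTGF), another YAP target, was at 40.3 and 48.7 against 55.7 and 52.2 CPM and was not called (+0.28). Myl9, a smooth muscle myosin light chain and SRF target, fell from 14.1 and 11.4 to 3.09 and 4.03 CPM (−1.85). The list therefore held strong risers beside members with little change.

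The promoters of Ccn1, Ankrd1 and Foxd3 are shown as examples of genes that rose or fell strongly, each from 250 bases before to 50 after the RefSeq start site on GRCm38.p6, a later build than the mm9 coordinates above, printed 5′ to 3′ along the gene. Capitals mark matches to motifs searched on both strands. These were the TEAD motif GGAATG, bound by the partner of YAP, the TATA box TATAAA, the cAMP response element TGACGTCA, the AP-1 motif TGANTCA and the octamer ATGCAAAT bound by POU factors. The AP-1 motif and the cAMP response element differ in their spacing and are counted separately.
Ccn1, chr3:145649936-145650235, minus strand: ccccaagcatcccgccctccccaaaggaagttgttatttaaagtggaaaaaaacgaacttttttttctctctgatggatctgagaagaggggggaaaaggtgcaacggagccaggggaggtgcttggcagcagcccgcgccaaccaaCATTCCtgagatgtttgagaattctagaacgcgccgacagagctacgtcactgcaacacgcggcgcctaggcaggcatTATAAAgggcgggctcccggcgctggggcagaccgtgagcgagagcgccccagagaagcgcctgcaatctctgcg
Ankrd1, chr19:36119795-36120094, minus strand: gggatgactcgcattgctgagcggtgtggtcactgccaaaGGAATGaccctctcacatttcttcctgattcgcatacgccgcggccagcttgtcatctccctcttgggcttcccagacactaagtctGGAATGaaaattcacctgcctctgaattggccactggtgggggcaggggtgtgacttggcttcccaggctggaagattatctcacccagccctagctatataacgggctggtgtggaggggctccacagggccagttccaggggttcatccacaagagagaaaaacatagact
Foxd3, chr4:99656049-99656348, plus strand: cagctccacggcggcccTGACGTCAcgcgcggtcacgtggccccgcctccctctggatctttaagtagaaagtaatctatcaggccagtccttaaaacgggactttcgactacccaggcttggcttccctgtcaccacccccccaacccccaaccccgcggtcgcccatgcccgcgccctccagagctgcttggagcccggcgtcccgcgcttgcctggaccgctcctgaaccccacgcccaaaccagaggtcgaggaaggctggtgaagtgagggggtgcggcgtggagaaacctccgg

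The Ankrd1 window holds the TEAD motif at −210 and −123 from the start. The Ccn1 window holds the reverse complement of that motif at −103 and a TATA box at −25, and the Foxd3 window a cAMP response element at −233. Most windows found for other genes with the largest changes held none of the motifs searched. Examples were Fosl2, Nacad, Sncg, Nab2, Mxd4, Ptgs2, Pllp, Col6a5 and Rxrg. Kctd11, Fgfbp1, Junb, Gm6803 and Eif4a3l1 held at least 1. Promoters were matched for 12569 tested genes, 454 of those called higher and 1053 of those called lower. The TEAD motif occurred in 14.5% of the tested promoters, 16.5% of those of genes called higher and 16.2% of those of genes called lower. For the AP-1 motif these shares were 6.28, 7.49 and 8.07%. For the cAMP response element they were 3.39, 2.86 and 1.42%, for the octamer 1.76, 1.54 and 3.13%, and for the TATA box 9.24, 8.37 and 15.8%. Over all 27025 promoters of the table, the TEAD motif occurred in 16.6%, the AP-1 motif in 8.97%, the cAMP response element in 2.03%, the octamer in 1.97% and the TATA box in 15.7%. Motifs are short and these shares carry no test.

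The remaining genes with the largest rises covered several functions. Fgfbp1, a carrier that releases FGFs from the matrix, rose from 9.11 and 9.17 to 54.4 and 59.6 CPM (+2.64 ± 0.12, edgeR adjusted p = 7.37e-08). Slc40a1, the iron exporter ferroportin, rose from 25.6 and 21.6 to 149 and 132 CPM (+2.57 ± 0.23, edgeR adjusted p = 0.000206). Ptgs2, the inducible cyclooxygenase COX-2 and itself an immediate early gene, rose from 3.27 and 3.22 to 17.1 and 21.2 CPM (+2.56 ± 0.30, edgeR adjusted p = 7.68e-05). Nacad (+3.52), Ano4 (+3.19), Sncg (+3.04), Efemp2 (+2.85), Enpp5 (+2.74), Mxd4 (+2.71), a MYC antagonist, and Kctd11 (+2.69) completed the list of high risers above 5 CPM.

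The largest falls ended near 0. Enpp2 (autotaxin, the enzyme that makes lysophosphatidic acid) went from 19.03 and 33.4 CPM to 0.0444 and 0.196, Pllp (plasmolipin) from 13.7 and 14.6 to 0.0444 and 0.168, and the retinoid receptor Rxrg from 7.31 and 9.91 to 0.0444 and 0.112. The netrin receptor Dcc read at 9.69 and 10.3 CPM with DMSO and at 0.0888 and 0 with A485. At least 1 A485 library of each lay near or under the floor of 3 counts, so no fold is given. Most of the other genes in this group, among them Gm2016, Gm2022, Gm21319, Gm6803, Gm8300, BC147527, A430089I19Rik and Eif4a3l1, belong to near-identical families whose reads the counting could split, and their values are uncertain.

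Genes of the same kind form the cleavage embryo list, which marks a rare cell state of ESC cultures that resembles the early cleavage embryo. Of 12 members tested of 15, 7 were lower and 0 higher (median −4.27), beside 9.0% and 3.52% of all genes tested. In each of the 4 fits without 1 library 3 were lower, and by DESeq2 or with the 2 groups alone 12. The summed level was 862.7 and 712.5 CPM with DMSO, 69.68 and 66.14 with A485 and 73.79 and 18.02 in WT. Usp17lc went from 11.5 and 10.4 to 1.93 and 2.80 CPM and Zfp352 changed by −5.66, whereas Zscan4a (−5.58) lost its call in all 4 fits without 1 library. Most of these genes have near copies, so single values are uncertain.

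**Figure D3:**
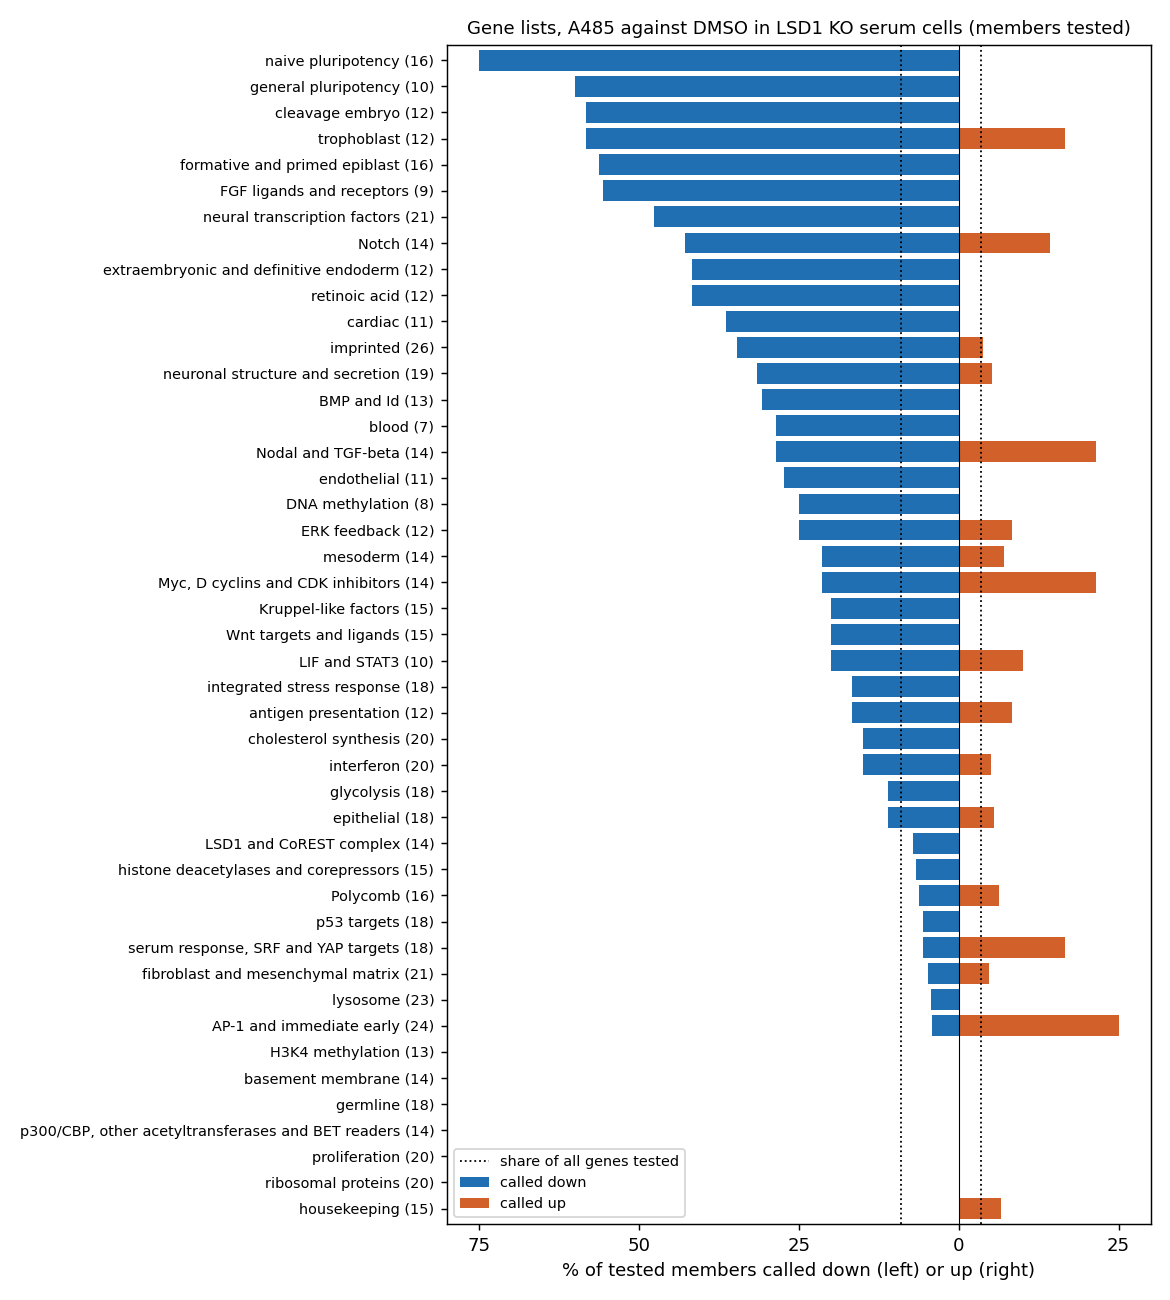
Percent of tested members of each gene list called lower (left bars) and higher (right bars) with A485 in LSD1 KO serum cells, with dotted lines at the 9.0 and 3.52% of all genes tested. The naive, formative, general pluripotency, FGF and cleavage embryo lists and the trophoblast list extend furthest to the left and the AP-1 list furthest to the right.

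Called lineage genes were mostly lower, as were called genes of all kinds (9.0% of all genes tested lower, 3.52% higher). Of 21 neural transcription factors 10 were lower and 0 higher (median −1.33), and their sum was 164.7 and 206.9 CPM with DMSO, 57.47 and 78.78 with A485 and 311.4 and 306.9 in WT. Neurod1, a proneural factor, went from 9.71 and 13.6 to 1.11 and 1.99 CPM (−2.93 ± 0.29, edgeR adjusted p = 1.59e-05) and Olig2, a spinal cord progenitor factor, from 6.04 and 9.83 to 1.20 and 1.99 CPM (−2.33 ± 0.27, edgeR adjusted p = 6.74e-05), against 24.0 and 24.0 in WT. Pax6 (−3.88) and Irx3 (−3.15) also fell. Pou3f4, at 0.231 and 0.738 CPM with DMSO and 0.355 and 0.280 with A485, was close to background in all 4. Of 19 neuronal structure genes 6 were lower and 1 higher, and their sum overlapped between groups (400.1 and 457.3 against 392.4 and 468.5 CPM).

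The 1 neuronal gene called higher was Nefl, the light neurofilament. It read at 58.0 and 60.8 CPM with DMSO, 171 and 196 with A485 and 119 and 202 in WT (A485 against DMSO +1.63 ± 0.25, edgeR adjusted p = 0.00311). That call was lost in all 4 fits without 1 library, with adjusted p from 0.0169 to 0.0334. Tubb3 (−1.36) and the RNA-binding protein Elavl3 (−1.91), 2 general neuronal markers, were lower, and Stmn2 was flat at −0.07.

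Markers of cell types other than epiblast were counted as lists too, beside 9.0% of all genes tested lower and 3.52% higher. Of 12 trophoblast genes 7 were lower and 2 higher (3 to 5 and 0 in the fits without 1 library), and the sum was 208.9 and 178.7 CPM with DMSO against 171.7 and 162.0 with A485. Phlda2, an imprinted growth restrainer of the placenta, went from 24.6 and 27.9 to 2.80 and 3.02 CPM (−3.18 ± 0.16, edgeR adjusted p = 1.1e-07), while Gata3 stood at 28.5 and 25.5 against 63.4 and 63.1 CPM (+1.23) with a call that was lost in all 4 fits without 1 library (adjusted p 0.0137 to 0.0223). The placental genes Prl3d1 and Tpbpa were at 0 in all these libraries. Of 12 endoderm genes 5 were lower, or 2 to 3 without 1 library, and 0 higher (155.2 and 152.4 against 115.0 and 106.8 CPM in sum), with Gata6 at 2.54 and 2.11 against 0.222 and 0.224 CPM. Afp and Ttr, defining genes of visceral endoderm, were the 2 endoderm members at 0 with A485. With DMSO 1 member of the list was at 0, and 12 of its 15 members were tested. No loss is read from these zeros.

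Of 14 mesoderm genes 3 were lower and 1 higher, but 0 were called either way in any of the 4 fits without 1 library, and the sums were 66.74 and 85.88 with DMSO and 84.86 and 89.57 CPM with A485. Brachyury (T), the primitive streak factor, was at 7.68 and 23.4 against 1.40 and 3.02 CPM and did not pass (edgeR adjusted p = 0.079). Cardiac genes had 4 of 11 lower, or 2 to 3 without 1 library, and 0 higher (40.37 and 34.69 against 15.41 and 19.09 CPM in sum), among them the sarcomere actin Actc1 (−3.76) and the calcium channel Ryr2 (−2.63), and the atrial peptide gene Nppa was at 0 throughout. Endothelial genes had 3 of 11 lower and 0 higher (113.0 and 121.6 against 47.02 and 42.80 CPM in sum), and the calls of all 3, Kdr, Tie1 and Esam, were lost in the 4 fits without 1 library. Blood genes had 2 of 7 lower and 0 higher at sums of 14.12 and 16.45 against 9.906 and 8.498 CPM. Embryonic globin Hba-x was at 0. Epithelial genes (1 of 18 higher, 2 lower) and fibroblast matrix genes (1 of 21 higher, 1 lower) overlapped or nearly overlapped in sum, at 1688 and 1511 against 1626 and 1473 CPM and at 869.3 and 830.9 against 928.2 and 1045 CPM. The part of changing cell types in the naive and formative falls was not tested.

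Transcripts of the inhibited enzymes were not lost. Of 14 acetyltransferase and BET reader genes, 0 were called in either direction. Ep300, the gene for P300, read at 318 and 308 CPM with DMSO and 578 and 550 with A485 (+0.85 ± 0.06, edgeR adjusted p = 1.48e-06), and Crebbp, the gene for CBP, at 235 and 232 against 354 and 359 (+0.61 ± 0.06, edgeR adjusted p = 2.24e-05). Both A485 libraries were higher for each, short of the size threshold. H3K4 methylation genes had 0 of 13 called, and the deacetylase and CoREST lists had 1 of 15 and 1 of 14 lower, Hdac9 (−1.51) and the residual Kdm1a signal. Of 16 Polycomb genes 1 was higher, Bmi1, from 21.7 and 18.8 to 46.9 and 44.3 CPM (+1.17), and 1 lower, Jarid2 (−1.06), whose call was lost in 3 of the 4 fits without 1 library.

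Growth and metabolism lists stayed mostly within the thresholds, although most members of several had a negative log2 fold change. These were 20 of 20 ribosomal protein, 18 of 20 cholesterol, 17 of 18 stress response, 16 of 20 proliferation and 14 of 18 glycolysis genes. For p53 targets it was 7 of 18 and for lysosome genes 7 of 23. Over all genes tested 8539 were lower and 7745 higher, with 9.0% called lower and 3.52% called higher. Of 20 proliferation genes 0 were called (6622 and 6482 against 5795 and 5767 CPM in sum), and of 20 ribosomal protein genes 0 (median −0.15). Mycn, a MYC paralog well expressed in ESCs, fell from 117 and 123 to 3.24 and 4.39 CPM (−4.99 ± 0.20, edgeR adjusted p = 1.43e-06), and Cdkn2b, the CDK inhibitor p15, rose from 7.89 and 6.43 to 21.1 and 17.8 CPM (+1.44 ± 0.20, edgeR adjusted p = 0.000162). Insig1, a sterol sensor, fell from 66.0 and 65.9 to 19.1 and 18.4 CPM (−1.81 ± 0.08, edgeR adjusted p = 7.37e-08), as 1 of 3 cholesterol genes lower of 20. The list of MYC genes, D cyclins and CDK inhibitors had 3 of 14 higher and 3 lower. Integrated stress response (3 of 18), glycolysis (2 of 18), p53 target (1 of 18) and lysosome (1 of 23) genes were called lower in small number and higher in none. The basement membrane list had 0 of 14 called in either direction and the germline list 0 of 18, although 5 germline genes were lower with the replicate block, 3 with the 2 groups alone and 2 by DESeq2. DNA methylation genes had 2 of 8 lower and 0 higher, Dnmt3b included. The housekeeping gene Actb was at 4797 and 4408 against 4676 and 4510 CPM, with overlapping groups, and B2m was the 1 of 15 housekeeping genes called, a call lost in 2 of the 4 fits without 1 library.

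Against WT, the A485-treated KO cells had 13 of 20 cholesterol genes, 13 of 18 stress response genes and 11 of 18 glycolysis genes lower and 0 higher, where 9.76% of all genes tested were lower. LSD1 KO cells with DMSO against WT had 5, 6 and 6 of these lists lower (medians −0.78, −0.84 and −0.69), where 3.34% of all genes were lower. In LSD1 KO cells A485 against DMSO gave the 3, 3 and 2 named above. The contrasts share libraries.

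Among imprinted genes 9 of 26 were lower and 1 higher, beside 9.0% and 3.52% of all genes tested. H19, a maternally expressed noncoding RNA, was at 860 and 674 CPM in KO with DMSO, 60.5 and 65.8 with A485 and 28.1 and 29.5 in WT (A485 against DMSO −3.60 ± 0.22, edgeR adjusted p = 7.53e-05). The A485 libraries thus lay much nearer to WT than to KO with DMSO. Peg10, a retrotransposon-derived placental gene, went further from WT instead, from 3838 and 3427 CPM to 12860 and 12930 against 828 and 1063 in WT (+1.83 ± 0.25, edgeR adjusted p = 0.0031), a call lost in all 4 fits without 1 library (adjusted p 0.0175 to 0.0222). Magel2 (−3.10), Cdkn1c (−2.35), Dlk1 (−1.71) and Meg3 (−1.23) fell.

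Rnf213 and Psap are 2 genes that the study followed as reporters. Rnf213, a ubiquitin ligase, was at 81.4 and 50.9 CPM with DMSO, 10.3 and 7.97 with A485 and 47.4 and 41.3 in WT (A485 against DMSO −2.86 ± 0.34, edgeR adjusted p = 0.00118). Its adjusted p was 0.0124 without A485 replicate 1 and 0.0155 without A485 replicate 2. Psap, the lysosomal saposin precursor, was at 273 and 230 against 248 and 241 CPM, and the groups overlapped (−0.04, and +0.04 with total counts as the scale). WT had 117 and 110 CPM of Psap, below all 4 KO libraries. Interferon genes as a list had 3 of 20 lower and 1 higher, and antigen presentation genes 2 of 12 lower and 1 higher. Over all genes tested 9.0% were lower and 3.52% higher, and no effect on either list as a whole is read from such small counts. Ciita was at least 19-fold lower with A485, where no counts were read against a floor of 3 counts a library.

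Genes that LSD1 loss had raised in other cultures were then followed in serum, using lists from libraries that the serum comparison did not share. Of 969 tested genes that were higher in LSD1 KO than in WT embryoid bodies (EBs), 31.8% were called lower with A485 in serum and 3.92% higher, with a median log2 fold change of −0.74. Of 1064 genes higher in LSD1 KO epiblast-like cells (EpiLCs) 20.7% were lower and 4.79% higher (median −0.50), and of 1349 higher in LSD1 KO ESCs 16.2% were lower and 3.93% higher (median −0.37). Of the WT ESC libraries, 3 had 0 counts on contigs not placed on a chromosome, as did the LSD1 KO libraries behind the ESC list. The other WT ESC libraries had 4964 to 9505 such counts. With only the 3 WT libraries at 0, the ESC share was 17.3% lower and 4.76% higher. All these shares of lower genes lie above the 9.0% of all genes tested, and the shares of higher genes lie near its 3.52%. They depend on single libraries. Without LSD1 KO DMSO replicate 1 the EB, EpiLC and ESC shares were 26.2, 10.1 and 9.06%, where 6.52% of all genes were lower. Without A485 replicate 1 they were 23.1, 12.3 and 9.5% against 5.89%, and without A485 replicate 2 they were 23.7, 10 and 8.95% against 6.04%. With 3 WT libraries the ESC share was 9.43 to 12.6% in such fits. The lists themselves held 5.74% of genes tested in EBs, 6.82% in EpiLCs, and 10.2% or, with 3 WT libraries, 9.85% in ESCs. Seen from the other side, the EB, EpiLC and ESC lists held 21.0, 15.0 and 14.9% of all genes that fell in serum and 6.62, 8.89 and 9.23% of those that rose.

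A485 was also given to LSD1 KO cells in 3 other cultures: EpiLCs grown for 2 days with activin and FGF2, naive ESCs, and EBs on day 6. The study's legends give different doses for ESCs and EBs, so dose, time and culture cannot be told apart in what follows. The response in serum was closest in size and direction to that of EpiLCs for the 3 markers. Pou3f1 changed by −4.62 in EpiLCs (edgeR adjusted p = 1.33e-14) and by −0.72 in ESCs and −0.07 in EBs, neither of which was called. Foxd3 changed by −7.91 in EpiLCs, −4.27 in ESCs and +1.06 in EBs, all called. Fosl2 changed by +3.73 in EpiLCs, +2.37 in ESCs and −3.50 in EBs, all called.

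Tests of the difference between cultures used 1 fit over all 16 LSD1 KO libraries with DMSO or A485. The log2 fold change of Pou3f1 in serum differed from that in ESCs by −3.73 and from that in EBs by −4.42 (edgeR adjusted p = 8.38e-06 and 2.62e-08), and from that in EpiLCs by +0.15 (adjusted p = 0.844). For Foxd3 the difference was −2.20 from ESCs and −7.56 from EBs (edgeR adjusted p = 0.00455 and 2.6e-12), and +1.43 from EpiLCs, which did not pass. For Fosl2 it was +6.86 from EBs (edgeR adjusted p = 1.39e-14) and +1.02 from ESCs, which missed the threshold at 0.0131. In these DMSO libraries, scaled together, Fosl2 began at 0.689 and 0.602 CPM in ESCs, 2.84 and 2.08 in EpiLCs, 7.23 and 7.43 in serum and 33.0 and 38.0 in EBs, and with A485 reached 3.26 and 3.34, 27.4 and 37.0, 73.9 and 77.1, and 3.33 and 3.01. The DMSO level was thus highest in the culture where Fosl2 fell.

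**Figure D4:**
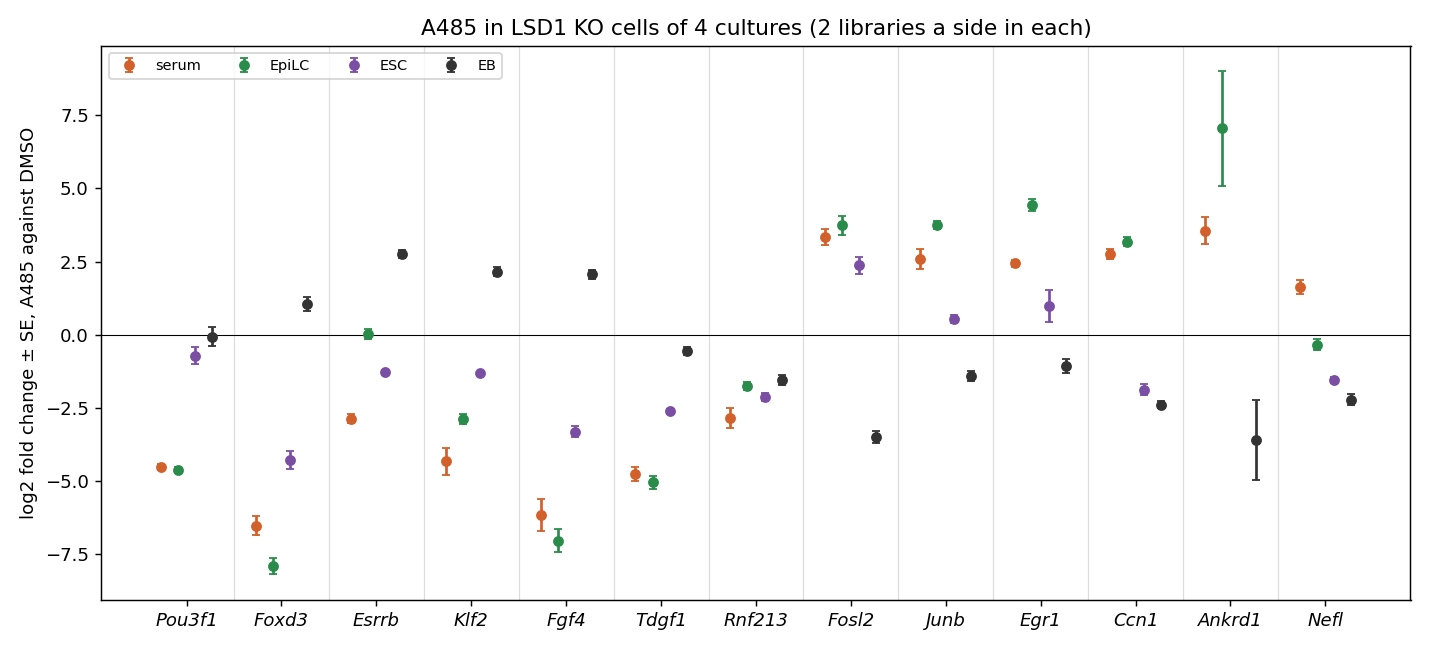
Log2 fold change (± SE) of A485 against DMSO in LSD1 KO cells in serum, EpiLCs, ESCs and EBs for 13 genes, each culture fitted on its own libraries with 2 a group; a missing point is a gene not tested there. Fosl2, Egr1, Ccn1 and Ankrd1 sit above 0 in serum and EpiLCs and below 0 in EBs, and Esrrb, Klf2 and Fgf4 below 0 in serum and above 0 in EBs.

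Whole gene lists also responded differently between cultures. The 16 naive genes had 0 higher and 12 lower in serum, 0 and 8 in EpiLCs, 0 and 14 in ESCs, and 13 and 0 in EBs. Their medians were −2.51, −1.72, −1.51 and +2.09. Esrrb was flat in EpiLCs (+0.03), lower in ESCs (−1.29) and higher in EBs (+2.75), and its response in serum differed from each, by −2.86, −1.53 and −5.60 (edgeR adjusted p = 1.98e-09, 1.47e-06 and 8.35e-15). Of the naive list, 6 genes were called lower and 1 higher in the test of serum minus EpiLC, 8 and 0 in serum minus ESC, and 16 and 0 in serum minus EB. Over all 17288 genes of that fit the shares were 1.78% lower and 0.966% higher against EpiLCs, 3.89% and 3.65% against ESCs, and 11.3% and 10.2% against EBs. Within cultures, A485 called 10.2% of genes lower and 7.43% higher in EpiLCs, 11.7% and 5.94% in ESCs, and 9.54% and 4.26% in EBs.

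AP-1 and immediate early genes had 8 higher and 1 lower in EpiLCs, 3 and 5 in ESCs and 0 and 15 in EBs, with 6 and 1 in serum. Egr1 rose by 4.43 in EpiLCs and fell by 1.07 in EBs, and Junb rose by 3.76 and fell by 1.40, on the log2 scale. In the test of serum minus EB, 14 of the list were called higher and 0 lower, and of the SRF and YAP targets 13 of 18 and 0. Ccn1 changed by +3.18 in EpiLCs, −1.87 in ESCs and −2.39 in EBs, and its serum effect exceeded that in ESCs by 4.69 and that in EBs by 5.17 (edgeR adjusted p = 3.02e-12 and 1.77e-14). Formative genes had 15 lower in EpiLCs and 9 in serum with 0 higher in either, 2 lower and 2 higher in ESCs, and 1 lower and 5 higher in EBs. Nefl, by contrast, was not called in EpiLCs (−0.34) and fell in ESCs (−1.54) and EBs (−2.22), so that of the 4 cultures it was called higher with A485 in serum alone, and its serum effect differed from the others by +2.01, +3.22 and +3.87 (edgeR adjusted p = 2.04e-05, 4.18e-08 and 8.26e-10).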

How the data were processed

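RNA-seq counts per gene (rRNA-depleted, directional libraries) were analysed as deposited. Per the paper's methods and the submitters' processing notes, the authors trimmed reads with Trim Galore, aligned them to mm9 with STAR 2.7.9a, removed duplicates with Picard 2.25.5 and made the deposited counts with featureCounts in reverse-stranded mode. Most counts were even, so each mate of a pair was probably counted, and halving all counts was tried.

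Groups came from the library titles. The serum comparison was fitted over all 8 serum libraries with edgeR 4.0.16 in R 4.3.3 (TMM, filterByExpr by group, robust quasi-likelihood test), and the study's thresholds set the calls, an adjusted p (Benjamini-Hochberg) under 0.01 and a log2 fold change over 1 in size. SE is the log2 fold change divided by the root of F. EpiLC, ESC and EB comparisons were fitted on their own libraries, and differences between cultures on the 16 LSD1 KO libraries with DMSO or A485. Alternatives were DESeq2 1.42.0 (the study's tool), other scaling, filters, libraries and counting, a replicate block and leaving out each compared library. The 45 gene lists held 693 genes of the files, of which 663 were tested. Depth gives a floor of 3 counts, 0.0666 to 0.0838 CPM, for A485 libraries. On simulated counts for 15919 genes with 200 changed, 95% of 3-fold and 97% of 6-fold changes were called, with 4 false calls. The changed genes were drawn only from those with a mean above 5 CPM, and recovery was not split by level. These shares therefore do not cover genes below that mean, such as those near the floor of 3 counts. Changes under 3-fold were not simulated. Simulated counts also cannot show how far a call in the real libraries rests on 1 library.

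Named genes were the markers, genes the study followed, the 15 largest called changes each way with at least 5 CPM in 1 group, the 4 members with the lowest adjusted p in each list and 5 genes each way for each difference between cultures, and not every gene that the rule picks is reported here. Other members named, such as Nanog, Otx2, Fgf4, Tdh, Tfcp2l1, Utf1, Nodal, Tgfb1, Hes1, H19, Peg10, Cdkn2b, Gata3, Fos, Jun and Myc, were chosen after their values were seen. Members and lists were chosen with earlier results of these data known. Promoter sequences are from RefSeq (GRCm38.p6).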

Additional observations from a re-analysis of the deposited data

Results flagged for a closer look

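These results were picked out because the A485 effect in serum differed from that in another culture, by an edgeR quasi-likelihood test of the difference over 16 libraries at adjusted p under 0.01. Each value is the log2 fold change in serum minus that in the other culture. Doses and times of A485 differed or are not given, so they cannot be told apart from the culture.

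Between serum and EpiLCs, the cultures most alike, the largest difference in the positive direction was in Lef1 (6.38, adjusted p = 2.3e-05). With all 16 libraries scaled together, it held 94.2 and 110.9 CPM with DMSO and 59.5 and 103.4 with A485 in serum, and 125.6 and 137.8 with DMSO and 1.27 and 1.23 with A485 in EpiLCs. In serum A485 replicate 2 thus lay between the DMSO libraries for this Wnt effector and replicate 1 below them. In EpiLCs both A485 libraries were near silence. Vrtn (4.46), Lfng (4.13) and Kctd12b (3.69) differed the same way. Lower in serum than in EpiLCs were the effects on Frzb (−7.82), Ccser1 (−5.31), Jam2 (−5.22), Wnt7b (−4.77) and Nxf7 (−4.72).

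Between serum and ESCs, the effects on Klk10 (5.83), Eppk1 (4.74), Ccn1 (4.69), Sgo2b (4.51) and Col5a3 (4.49) were higher in serum, and those on Enpp2 (−9.38), P3h2 (−9.06), Vstm2b (−8.81), Frzb (−8.55) and Bhmt (−8.30) lower. Several of these genes were at or near 0 in ESCs, where the fitted value depends on the prior count. Without ESC A485 replicate 1 the differences for Enpp2 and Frzb were −2.90 and −3.18 (adjusted p = 0.986 and 0.989).

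Between serum and EBs, Sp5 (10.40), the protocadherin Pcdh7 (9.18) and the primitive streak gene Evx1 (7.72) had higher effects in serum and counts in every group. Sp5 went from 2.52 and 6.26 CPM with DMSO to 36.3 and 63.8 with A485 in serum and from 52.6 and 74.3 to 0.620 and 0.475 in EBs. Pcdh7 went from 2.78 and 3.33 to 22.9 and 37.4 CPM in serum and from 55.0 and 66.7 to 0.845 and 1.19 in EBs. Sp5, Pcdh7 and Evx1 had fitted changes of +3.49, +3.27 and +1.18 with A485 in serum but were not called there. Aplnr (11.97) and Pappa (7.50) were near 0 in serum, and without serum A485 replicate 1 Pappa had 3.29 (adjusted p = 0.96). The effects on Fgr (−11.11), Kirrel2 (−9.43), Aqp3 (−9.41), Nphs1os (−9.00) and C330020E22Rik (−8.67) were lower in serum, where Fgr was at 0 in both A485 libraries and Kirrel2, Nphs1os and C330020E22Rik at 0 in 1 and near 0 in the other, so that their fitted values depend on the prior count. Aqp3, a water and glycerol channel, went from 24.98 and 11.5 to 0.187 and 0.238 CPM in serum and from 2.59 and 1.22 to 18.5 and 12.1 in EBs.

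In fits that each left out 1 library, the calls of Frzb, Kctd12b and Lfng against EpiLCs, of Enpp2, Frzb, Klk10, Sgo2b and Vstm2b against ESCs, and of Aplnr and Pappa against EBs were lost at least once. Sgo2b, for instance, had 2.57 without serum A485 replicate 2 (adjusted p = 0.183).

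Among marker and reporter genes, differences from ESCs and EBs were −3.73 and −4.42 for Pou3f1 and −2.20 and −7.56 for Foxd3, and that from EBs was 6.86 for Fosl2. Differences from EpiLCs, ESCs and EBs were −2.86, −1.53 and −5.60 for Esrrb, −1.40, −2.94 and −6.45 for Klf2, and 2.01, 3.22 and 3.87 for Nefl. From EBs alone, Olig2 (−2.57), Neurod1 (−2.67), Pou5f1 (−2.69) and Sox2 (−2.43) differed.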

How the results depend on the processing

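The counts of genes called in serum with A485 stayed within 1.5 times of 574 higher and 1467 lower under DESeq2, both other scalings, no filter, the 2 groups alone, the replicate block, removal of Rn45s and halved counts. With total counts as the scale they were 695 and 1331. Leaving out 1 library gave 354 to 419 higher and 995 to 1148 lower. LSD1 KO against WT gave 519 to 904 higher and 240 to 493 lower (519 and 240 without LSD1 KO DMSO replicate 1, 345 lower without WT replicate 2), A485 in EBs 408 to 630 higher (408 without DMSO replicate 2), and list members 12 to 18 higher against 28. Serum minus EpiLC gave 279 higher and 556 lower without a filter against 167 and 307, 468 lower by DESeq2, and 203 to 262 lower without 1 library (203 without A485 serum replicate 2). By DESeq2, 18.6% of ESC, 35.1% of EB and 24.3% of EpiLC genes raised by LSD1 loss were lower with A485 in serum. Leaving out 1 serum library, an alternative chosen after seeing the data, gave 8.95 to 12.0% of ESC, 23.1 to 26.2% of EB and 10 to 16.4% of EpiLC genes. Values not called changed sign for Psap (0.04 with total counts, −0.18 to 0.07 without 1 library, 0.07 without LSD1 KO DMSO replicate 1) and Pou3f4 (−1.21 to 0.44, 0.44 without LSD1 KO DMSO replicate 2). The causes were not tested.

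Of 188 named genes called in serum, 63 lost the call in at least 1 of the 4 fits without a library and 29 under another alternative. A fit without 1 library leaves 1 in its group, which is assumed to vary like the others. Kdm1a lost its call in the fit of the 2 groups alone (adjusted p = 0.0267). Wnt7b lost its call for serum minus EpiLC in the fit of those groups alone (adjusted p = 0.0144) and Aplnr its call for serum minus EB by DESeq2 (0.0787) and on halved counts (0.0151). The replicate numbers are not shown to pair the libraries: deviations of same-numbered libraries correlated at 0.082 to 0.371 over the 6 pairs of serum groups and at 0.159 for DMSO and A485, and the groups share only 2 numbers. The replicate block gave 638 higher and 1636 lower. With 2 libraries a side, moderate changes and genes near the floor of 3 counts are the least certain.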
